A study of Homo sapiens with 18 samples.

Results

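The 40 genes described here belong to the cellular response to low oxygen and to glycolysis, and they were followed in 2 human neuroblastoma lines after silencing of ERK5. ERK5 is a mitogen-activated protein kinase, and its gene is MAPK7. The genes were listed by symbol, and each was read from the probe with the highest mean signal among those the array's annotation gives to it. Of the 40 listed genes, 37 had such a probe, out of 17687 gene symbols on 21448 probes, and each of the 37 had 1 probe. CA9, PFKFB4 and SLC16A3 had no probe under these symbols in the annotation used here and were not analysed here.

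Total RNA of CHLA-90 and SK-N-BE(2) cells was labelled with biotin and hybridised to 18 whole-transcript arrays, 3 biological replicates for each of 6 groups. In both lines the groups were shERK5-4, shERK5-5 and shNSC, where shERK5-4 and shERK5-5 are short hairpin RNAs against ERK5 and shNSC is the control hairpin. All groups, shNSC included, were seeded at 250000 cells per well in lentiviral supernatant from HEK-293T cells carrying the hairpin in the pLKO vector, and RNA was taken 72 hours after transduction. SK-N-BE(2) carries amplified MYCN and CHLA-90 does not. The labels name no low-oxygen treatment.

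Cells sense oxygen through the hypoxia-inducible factors (HIF), which pair an oxygen-labile alpha subunit, HIF-1alpha (HIF1A) or HIF-2alpha (EPAS1), with the stable subunit ARNT. In the presence of oxygen, prolyl hydroxylases of the EGLN family mark the alpha subunits, and VHL then directs them to degradation. Most of this control acts on protein, which the arrays do not measure. At low oxygen the HIF dimer binds the core sequence ACGTG or GCGTG in its targets and raises genes of blood vessel growth, mitophagy, collagen modification, glucose uptake and nearly every step of glycolysis, and PDK1 then holds pyruvate back from the mitochondria.

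Promoters of 7 of the listed genes are shown as examples from the results below. EGLN3 fell with shERK5-4 in both lines, EGLN1 and GPI rose with both hairpins of 1 line, and ADM rose with shERK5-5 in both lines. ENO1, PDK1 and LDHA were among the genes lower with shERK5-4 than with shERK5-5 in SK-N-BE(2). In CHLA-90 PDK1 was higher with shERK5-4 than with shERK5-5, and ENO1 and LDHA did not pass in that comparison. Each window is from RefSeq (GRCh38.p14), runs 5′ to 3′ on the strand of the gene, and covers 250 bases before to 50 bases after a start, 300 bases in all. Capitals mark ACGTG or GCGTG on either strand, so that CACGT and CACGC are the same cores on the opposite strand, and CACGTG, the E-box letters, holds ACGTG on both strands. Where a gene has several windows, the one with most ACGTG matches is printed.
EGLN3, chr14:33951025-33951324, minus strand: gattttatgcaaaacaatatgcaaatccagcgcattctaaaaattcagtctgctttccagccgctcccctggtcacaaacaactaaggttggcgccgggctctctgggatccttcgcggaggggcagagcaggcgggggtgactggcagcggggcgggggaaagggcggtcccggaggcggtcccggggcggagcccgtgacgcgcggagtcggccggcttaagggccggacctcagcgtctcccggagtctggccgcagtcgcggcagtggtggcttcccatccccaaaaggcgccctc
EGLN1, chr1:231422238-231422537, minus strand: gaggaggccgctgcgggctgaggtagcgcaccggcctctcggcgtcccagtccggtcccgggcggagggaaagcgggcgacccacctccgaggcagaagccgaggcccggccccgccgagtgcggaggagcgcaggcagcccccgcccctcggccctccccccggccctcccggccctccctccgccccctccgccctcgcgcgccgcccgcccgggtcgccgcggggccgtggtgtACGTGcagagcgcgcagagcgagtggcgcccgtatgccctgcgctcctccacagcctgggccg
ADM, chr11:10304823-10305122, plus strand: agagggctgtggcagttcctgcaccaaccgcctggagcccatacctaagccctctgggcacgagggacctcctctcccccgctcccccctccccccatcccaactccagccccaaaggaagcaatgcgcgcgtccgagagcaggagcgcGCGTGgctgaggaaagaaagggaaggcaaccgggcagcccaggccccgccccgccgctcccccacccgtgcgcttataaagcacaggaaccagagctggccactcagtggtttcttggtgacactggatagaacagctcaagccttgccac
GPI, chr19:34364742-34365041, plus strand: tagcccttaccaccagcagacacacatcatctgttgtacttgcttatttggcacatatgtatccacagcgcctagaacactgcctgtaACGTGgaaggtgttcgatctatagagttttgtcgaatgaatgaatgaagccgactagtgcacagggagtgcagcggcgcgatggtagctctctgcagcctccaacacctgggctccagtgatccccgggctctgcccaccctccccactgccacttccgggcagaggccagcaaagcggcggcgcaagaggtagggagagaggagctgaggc
ENO1, chr1:8878637-8878936, minus strand: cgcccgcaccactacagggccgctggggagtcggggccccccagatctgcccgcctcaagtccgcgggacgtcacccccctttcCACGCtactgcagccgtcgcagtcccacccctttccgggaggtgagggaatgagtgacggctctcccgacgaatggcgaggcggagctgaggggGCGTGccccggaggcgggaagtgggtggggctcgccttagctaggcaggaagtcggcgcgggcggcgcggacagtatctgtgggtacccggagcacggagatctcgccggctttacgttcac
PDK1, chr2:172555840-172556139, plus strand: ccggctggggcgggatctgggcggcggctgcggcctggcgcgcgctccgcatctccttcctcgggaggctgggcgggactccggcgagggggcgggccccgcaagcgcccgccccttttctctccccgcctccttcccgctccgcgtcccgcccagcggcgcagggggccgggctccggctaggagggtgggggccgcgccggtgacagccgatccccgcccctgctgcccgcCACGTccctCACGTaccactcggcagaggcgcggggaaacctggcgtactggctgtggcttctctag
LDHA, chr11:18394313-18394612, plus strand: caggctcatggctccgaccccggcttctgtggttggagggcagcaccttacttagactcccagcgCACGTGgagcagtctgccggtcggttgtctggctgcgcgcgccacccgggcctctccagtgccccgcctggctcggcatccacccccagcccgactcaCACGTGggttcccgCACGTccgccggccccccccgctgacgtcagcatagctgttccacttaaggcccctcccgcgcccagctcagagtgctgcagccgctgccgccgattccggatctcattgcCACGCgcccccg
The EGLN1 and GPI windows each held 1 ACGTG match, the PDK1 window 2 and the LDHA window 5, of which 2 pairs form CACGTG. The ADM window held 1 GCGTG match and the ENO1 window 2, and neither held ACGTG. The EGLN3 window held neither core.

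Windows were at hand for 35 of the 40 genes, 63 windows in all, and not for SLC2A3, VEGFA, BNIP3L, NDRG1 and VHL. ACGTG stood in 23 of the 63 windows (36.5%), against 21.4% of all 35116 RefSeq windows of this length. Counted by gene, 19 of 35 listed genes (54.3%) had it in at least 1 window, against 24.9% of 27305 genes. The listed genes had 1.8 windows each and all genes 1.29, and a gene with more windows has more chances of a match. GCGTG stood in 41.3% of the listed genes' windows, against 36.5% of all windows, and CACGTG in 12.7%, against 7.26%. Several of the genes are textbook HIF targets, so the shares describe the list, and a match says only that these letters lie in the window.

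MAPK7, the target of both hairpins, was measured first. Log2 signals in CHLA-90 were 7.15, 7.57 and 7.33 with shERK5-4, 7.24, 7.83 and 7.22 with shERK5-5, and 8.37, 8.24 and 8.64 with shNSC. SK-N-BE(2) arrays gave 5.97, 6.28 and 6.02 with shERK5-4, 6.14, 6.02 and 6.28 with shERK5-5, and 6.99, 6.46 and 6.90 with shNSC. All silenced arrays lay below all shNSC arrays of their line. The CHLA-90 log2 difference from shNSC was -1.07 ± 0.20 for shERK5-4 and -0.99 ± 0.20 for shERK5-5 (SE; limma adjusted p = 0.000329 and 0.00139), and -0.69 ± 0.20 and -0.64 ± 0.20 in SK-N-BE(2) (limma adjusted p = 0.0103 and 0.0319). MAPK7 thus stood at 47.7% and 50.5% of shNSC in CHLA-90 and at 61.8% and 64.3% in SK-N-BE(2). In SK-N-BE(2) the MAPK7 call for shERK5-4 had an adjusted p of 0.061 without shNSC replicate 1, and that for shERK5-5 one of 0.0833 to 0.149 without shNSC replicate 1 or 3 or shERK5-5 replicate 1 or 2.

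Each hairpin changed a minority of the listed genes, in both directions in 3 of the 4 comparisons. In CHLA-90, 11 of 37 genes passed a limma adjusted p of 0.05 with shERK5-4, 5 higher and 6 lower, where 18.3% of all probes passed. Of all probes 10% were higher and 8.25% lower. Here and below, all probes include 3739 without a gene symbol and those with means under the 25th percentile. Of the listed genes 0 lay under that limit, and they were chosen with earlier results of these data known. The shares are therefore not from like sets. With shERK5-5, 6 genes passed, 2 higher and 4 lower, where 12.7% of all probes passed, 5.85% higher and 6.84% lower. In SK-N-BE(2), 14 passed with shERK5-4, 6 higher and 8 lower, where 23.9% of all probes passed, 12.2% higher and 11.7% lower. With shERK5-5 5 genes passed there, all 5 higher, where 12.8% of all probes passed, 6.76% higher and 6.07% lower. VHL (-0.727) and ALDOC (-0.707) were lower there and narrowly missed the threshold (limma adjusted p = 0.0521 and 0.0503). Both passed as lower when certain single arrays were left out (lowest limma adjusted p 0.00871 and 0.0253), so the single direction depends on the threshold. The median log2 difference of the 37 genes was 0.10 and -0.20 in CHLA-90 and -0.06 and 0.16 in SK-N-BE(2), shERK5-4 first in each line, against 0.01, 0.05, 0.01 and -0.003 over all probes. As the map of changes shows, 23 genes passed in at least 1 of the 4 comparisons, where 39.7% of all probes did, and 0 of the 37 passed in all 4 with 1 sign, where 1.29% of all probes did. The second count rests on GPI, which missed the threshold in 1 comparison, and it was 1, GPI, without dim probes, with trend and robust estimation, after quantile normalization, with the replicate block, without CHLA-90 shERK5-5 replicate 1 or SK-N-BE(2) shERK5-4 replicate 3, and without the 2 arrays least like their groups. The remaining 14 were CA12, BNIP3, ANKRD37, KDM3A, P4HA2, HK1, ALDOA, ALDOC, GAPDH, PGK1, PGAM1, ENO2, PKM and LDHB, with log2 differences between -0.71 and 0.84 and 95% limits reaching from -1.19 to 1.49. Of these, ANKRD37, P4HA2, ALDOC, GAPDH, PGK1, PGAM1 and PKM passed in at least 1 of the 4 comparisons when certain single arrays were left out.

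The arrays of a hairpin lay wholly above or below those of shNSC in CHLA-90 for 24 of 37 genes with shERK5-4 and for 13 with shERK5-5, where 37.5% and 26.8% of all probes did so. In SK-N-BE(2) these counts were 19 and 17, where 32.7% and 30% of all probes did so. Between shERK5-4 and shERK5-5 the arrays did not overlap for 22 genes in CHLA-90 and 25 in SK-N-BE(2), where 39.7% and 33.9% of all probes did not.

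**Figure D1:**
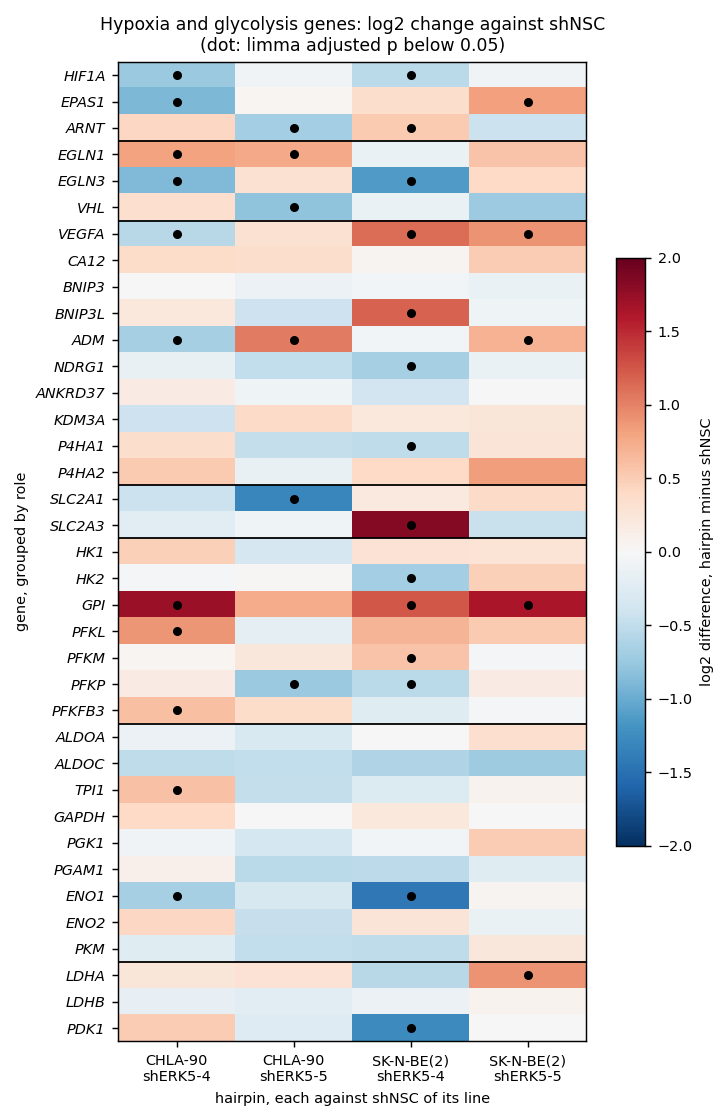
Log2 difference from shNSC (colour) of the 37 measured genes, in rows grouped by role, with each hairpin in each line, 3 arrays per group. Dots mark limma adjusted p below 0.05 and number 11 and 6 in CHLA-90 and 14 and 5 in SK-N-BE(2), shERK5-4 left of shERK5-5. GPI lies between 0.74 and 1.73 in all 4 columns.

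Of the 3 genes of HIF subunits, HIF1A fell with shERK5-4 in both lines and did not pass with shERK5-5 in either. Its log2 signals in CHLA-90 were 14.76, 14.96 and 15.07 with shERK5-4, 15.83, 15.51 and 15.47 with shERK5-5, and 15.69, 15.65 and 15.66 with shNSC. For SK-N-BE(2) the signals were 15.07, 15.20 and 14.69 with shERK5-4, 15.40, 15.58 and 15.38 with shERK5-5, and 15.60, 15.48 and 15.50 with shNSC. The shERK5-4 arrays lay below all other arrays of their line, while the shERK5-5 arrays overlapped shNSC. The log2 difference of shERK5-4 from shNSC was -0.74 ± 0.16 in CHLA-90 and -0.54 ± 0.16 in SK-N-BE(2) (limma adjusted p = 0.00221 and 0.0172). In SK-N-BE(2) it no longer passed when shNSC replicate 1 or shERK5-4 replicate 3 was left out (adjusted p = 0.0632 to 0.113) and after quantile normalization (adjusted p = 0.0894).

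EPAS1 moved with a different hairpin in each line. In CHLA-90 it measured 5.77, 5.71 and 5.43 with shERK5-4, 6.08, 6.60 and 7.05 with shERK5-5, and 6.53, 6.53 and 6.54 with shNSC on the log2 scale. The signals in SK-N-BE(2) were 6.02, 5.96 and 5.37 with shERK5-4, 6.37, 6.11 and 6.31 with shERK5-5, and 5.83, 5.07 and 5.41 with shNSC. In CHLA-90 the shERK5-4 arrays were the 3 lowest, and in SK-N-BE(2) the shERK5-5 arrays were the 3 highest. EPAS1 fell by 0.90 ± 0.23 on the log2 scale with shERK5-4 in CHLA-90 (limma adjusted p = 0.00698) and rose by 0.83 ± 0.23 with shERK5-5 in SK-N-BE(2) (limma adjusted p = 0.0167). The second result failed on leaving out shNSC replicate 2 or shERK5-5 replicate 1 or 3 of SK-N-BE(2) (adjusted p = 0.0573 to 0.121).

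ARNT separated the hairpins in the same way in both lines. Log2 signals in CHLA-90 were 12.85, 12.67 and 12.75 with shERK5-4, 11.61, 11.83 and 11.56 with shERK5-5, and 12.34, 12.37 and 12.34 with shNSC. In SK-N-BE(2) they were 10.62, 10.78 and 10.95 with shERK5-4, 9.54, 9.77 and 10.19 with shERK5-5, and 10.19, 10.29 and 10.32 with shNSC. The shERK5-4 arrays were the highest and the shERK5-5 arrays the lowest of each line, with a tie between a shERK5-5 and a shNSC array in SK-N-BE(2). Against shNSC, ARNT fell by 0.68 ± 0.17 with shERK5-5 in CHLA-90 (limma adjusted p = 0.00844) and rose by 0.52 ± 0.17 with shERK5-4 in SK-N-BE(2) (limma adjusted p = 0.0259; 0.0568 to 0.105 without shNSC replicate 1 or 2 or shERK5-4 replicate 3 of that line). The difference of shERK5-4 from shERK5-5 was 1.09 ± 0.17 in CHLA-90 and 0.95 ± 0.17 in SK-N-BE(2) (limma adjusted p = 3.3e-05 and 0.000123).

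The oxygen sensors themselves went different ways. EGLN3, a prolyl hydroxylase that is itself induced by HIF, fell with shERK5-4 in both lines. Its log2 signals in CHLA-90 were 7.16, 7.24 and 7.58 with shERK5-4, 8.66, 8.11 and 8.78 with shERK5-5, and 8.08, 8.22 and 8.34 with shNSC. SK-N-BE(2) arrays gave 8.26, 8.40 and 8.69 with shERK5-4, 9.77, 10.06 and 10.10 with shERK5-5, and 9.81, 9.52 and 9.42 with shNSC. The shERK5-4 arrays lay below all other arrays of their line, and shERK5-5 overlapped shNSC. The log2 difference of shERK5-4 from shNSC was -0.89 ± 0.19 in CHLA-90 and -1.13 ± 0.19 in SK-N-BE(2) (limma adjusted p = 0.0018 and 9.31e-05), and both calls held under every alternative run.

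EGLN1, the main hydroxylase acting on HIF-1alpha, was the gene that passed with 1 sign with both hairpins in CHLA-90, where 3.51% of all probes did. The 2 comparisons use the same 3 shNSC arrays. EGLN1 measured 9.36, 9.18 and 9.50 with shERK5-4, 9.75, 9.24 and 8.91 with shERK5-5, and 8.56, 8.71 and 8.38 with shNSC in CHLA-90 on the log2 scale. All 6 silenced arrays lay above all shNSC arrays. It rose by 0.80 ± 0.20 with shERK5-4 and 0.75 ± 0.20 with shERK5-5 (limma adjusted p = 0.00628 and 0.0155), and the shERK5-5 call was lost without shERK5-5 replicate 1 or shNSC replicate 3 (adjusted p = 0.0758 to 0.101). In SK-N-BE(2) EGLN1 measured 9.28, 9.51 and 9.38 with shERK5-4, 10.40, 9.97 and 9.95 with shERK5-5, and 9.26, 9.70 and 9.63 with shNSC, with differences of -0.14 ± 0.20 and 0.58 ± 0.20 from shNSC that did not pass (limma adjusted p = 0.709 and 0.0634).

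VHL, the substrate receptor of the ubiquitin ligase that binds hydroxylated HIF, fell with shERK5-5 in CHLA-90. It measured 10.37, 10.64 and 10.42 with shERK5-4, 9.80, 8.57 and 9.62 with shERK5-5, and 10.08, 10.19 and 10.15 with shNSC in CHLA-90. For SK-N-BE(2) the signals were 7.97, 7.38 and 7.70 with shERK5-4, 6.73, 7.19 and 7.34 with shERK5-5, and 7.70, 7.96 and 7.78 with shNSC. The shERK5-5 arrays were the lowest of each line. VHL fell by 0.81 ± 0.24 on the log2 scale with shERK5-5 in CHLA-90 (limma adjusted p = 0.0302), and without shERK5-5 replicate 2, its lowest array, by 0.43 (adjusted p = 0.188). The call was also lost without any 1 of the 3 shNSC arrays of that line (lowest adjusted p 0.0656). In SK-N-BE(2) the difference was -0.73 ± 0.24 (limma adjusted p = 0.0521). It passed without SK-N-BE(2) shERK5-4 replicate 1 or 2 or any 1 CHLA-90 shERK5-5 array (limma adjusted p = 0.00871 to 0.0483).

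Among the 10 measured HIF targets outside glycolysis, the counts higher and lower were 0 and 2 with shERK5-4 and 1 and 0 with shERK5-5 in CHLA-90, and 2 and 2 with shERK5-4 and 2 and 0 with shERK5-5 in SK-N-BE(2). The shares that passed were 20%, 10%, 40% and 20%, where 18.3%, 12.7%, 23.9% and 12.8% of all probes passed. VEGFA, the growth factor that recruits blood vessels, moved in opposite directions in the lines with shERK5-4, as 0.471% of all probes did. Log2 signals in CHLA-90 were 13.08, 13.09 and 12.97 with shERK5-4, 13.97, 13.79 and 13.92 with shERK5-5, and 13.67, 13.54 and 13.58 with shNSC. The signals in SK-N-BE(2) were 11.69, 11.45 and 11.85 with shERK5-4, 11.37, 11.31 and 11.67 with shERK5-5, and 10.06, 10.67 and 10.92 with shNSC. In SK-N-BE(2) all 6 silenced arrays lay above shNSC, and in CHLA-90 shERK5-4 lay below and shERK5-5 above it. VEGFA rose 2.16-fold with shERK5-4 and 1.87-fold with shERK5-5 in SK-N-BE(2) (log2 differences 1.11 ± 0.19 and 0.90 ± 0.19, limma adjusted p = 8.96e-05 and 0.00179), and both calls held under every alternative run. The fall in CHLA-90 with shERK5-4 was weaker, at -0.55 ± 0.19 (limma adjusted p = 0.0448), and its adjusted p was 0.0511 to 0.132 without any 1 of 9 arrays: the 6 arrays of that comparison, SK-N-BE(2) shERK5-5 replicates 1 and 2, and SK-N-BE(2) shNSC replicate 2.

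ADM encodes adrenomedullin, a secreted vasodilator peptide induced at low oxygen. It measured 6.12, 6.00 and 5.99 with shERK5-4, 8.09, 7.17 and 7.95 with shERK5-5, and 6.86, 6.86 and 6.36 with shNSC in CHLA-90. In SK-N-BE(2) it measured 5.95, 5.78 and 5.77 with shERK5-4, 6.50, 6.85 and 6.41 with shERK5-5, and 6.04, 6.08 and 5.56 with shNSC. The shERK5-5 arrays were the highest of both lines, and in CHLA-90 the shERK5-4 arrays were the lowest. ADM rose by 1.04 ± 0.22 with shERK5-5 in CHLA-90 (limma adjusted p = 0.00228) and by 0.69 ± 0.22 with shERK5-5 in SK-N-BE(2) (limma adjusted p = 0.0365), the one listed gene that passed with shERK5-5 alike in both lines, as 4.58% of all probes did. Opposite calls of shERK5-5 in the lines were made for 0 listed genes and 0.336% of all probes. The SK-N-BE(2) result no longer passed when leaving out shNSC replicate 1 or 3 or shERK5-5 replicate 1 or 2 (adjusted p = 0.0537 to 0.194). With shERK5-4 ADM fell by 0.66 ± 0.22 in CHLA-90 (limma adjusted p = 0.0378; 0.0674 to 0.14 without any 1 of its 3 shERK5-4 arrays or shNSC replicates 1 and 2), so that the hairpins opposed each other, as they did for 1.4% of all probes.

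BNIP3L, a mitophagy receptor, rose 2.27-fold with shERK5-4 in SK-N-BE(2), where it measured 14.49, 14.35 and 14.55 with shERK5-4, 13.03, 13.13 and 13.43 with shERK5-5, and 13.43, 13.02 and 13.40 with shNSC. In CHLA-90 it measured 14.30, 14.37 and 14.64 with shERK5-4, 13.66, 13.99 and 13.77 with shERK5-5, and 14.07, 14.43 and 14.17 with shNSC. The shERK5-4 arrays of SK-N-BE(2) lay above all others of the line, where shERK5-5 overlapped shNSC. The difference was 1.18 ± 0.17 in SK-N-BE(2) (limma adjusted p = 1.58e-05) and 0.21 ± 0.17 in CHLA-90 (limma adjusted p = 0.48). Its relative BNIP3, also a mitophagy receptor and HIF target, gave differences of -0.01 and -0.11 in CHLA-90 and -0.06 and -0.13 in SK-N-BE(2), shERK5-4 first, with 95% limits between -0.46 and 0.31.

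P4HA1, a collagen prolyl hydroxylase subunit, measured 9.78, 9.99 and 9.89 with shERK5-4, 9.12, 9.17 and 8.86 with shERK5-5, and 9.63, 9.54 and 9.43 with shNSC in CHLA-90. SK-N-BE(2) arrays gave 10.48, 10.02 and 10.14 with shERK5-4, 10.84, 11.26 and 10.81 with shERK5-5, and 10.70, 10.72 and 10.73 with shNSC. The order of the 3 groups was thus turned round between the lines. P4HA1 fell by 0.50 ± 0.17 with shERK5-4 in SK-N-BE(2) (limma adjusted p = 0.0302), a call lost without any 1 of the 3 shNSC arrays or shERK5-4 replicate 2 or 3 (adjusted p = 0.0659 to 0.12). NDRG1, a stress-induced gene of differentiation, fell by 0.66 ± 0.18 with shERK5-4 in SK-N-BE(2) (limma adjusted p = 0.0091; 0.0562 without shNSC replicate 2). There it measured 3.48, 3.55 and 3.68 with shERK5-4 and 4.07, 4.43 and 4.20 with shNSC. The 25th percentile of the probe means is 3.93, so this change lies close to background. The carbonic anhydrase gene CA12, ANKRD37, the histone demethylase gene KDM3A and P4HA2 passed with neither hairpin in either line in the fit to all arrays. For P4HA2 and ANKRD37 this depended on SK-N-BE(2) shERK5-4 replicate 2. Without that array P4HA2 rose in SK-N-BE(2) by 0.902 with shERK5-4 and 0.843 with shERK5-5 (limma adjusted p = 0.0128 and 0.0144). ANKRD37 then differed by -0.905 with shERK5-4 there (limma adjusted p = 0.00197).

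**Figure D2:**
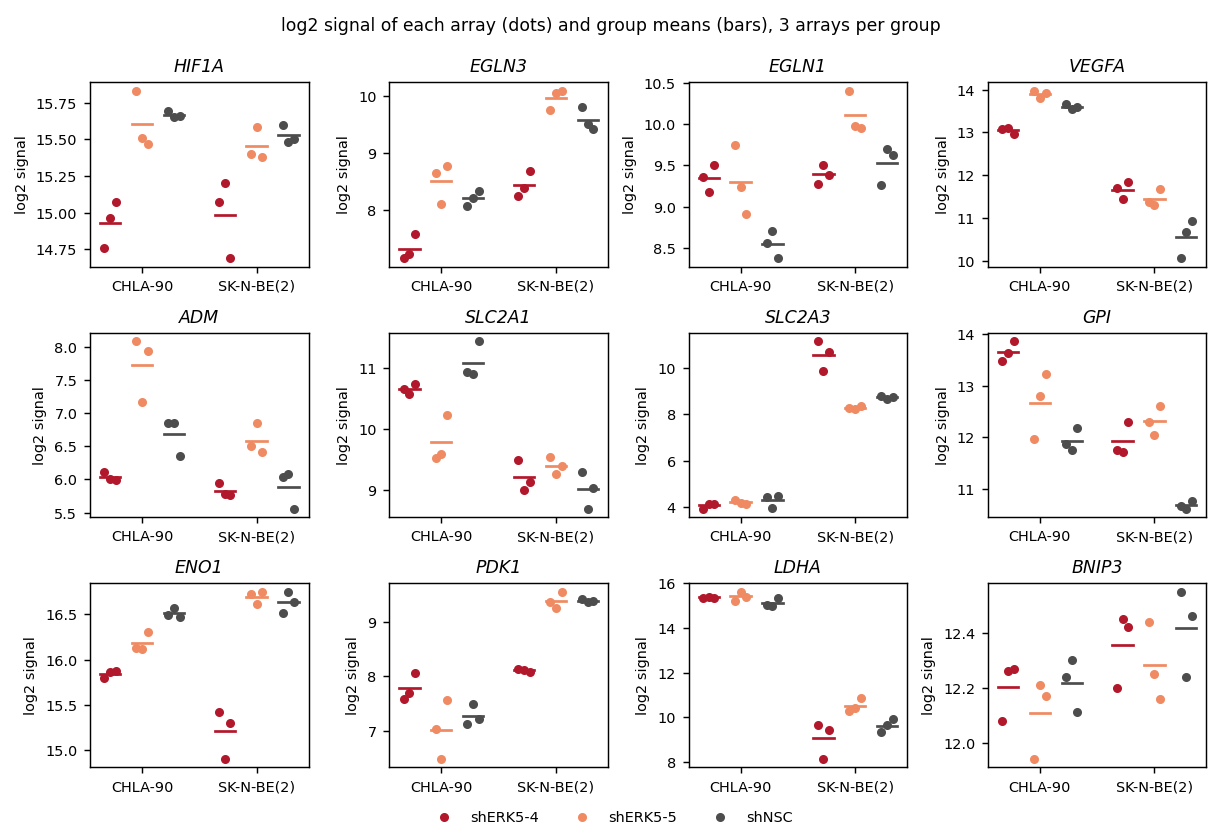
Log2 signal of every array (dots) and group means (bars) for 12 of the listed genes, with shERK5-4, shERK5-5 and shNSC from left to right in each line. GPI lies above shNSC with both hairpins in SK-N-BE(2), ENO1 and EGLN3 lie below shNSC with shERK5-4 in both lines, and LDHA lies between 15.01 and 15.63 in CHLA-90 and between 8.14 and 10.85 in SK-N-BE(2).

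The glucose transporter genes each responded in 1 line. SLC2A1, the basal transporter of most tissues, measured 10.66, 10.58 and 10.74 with shERK5-4, 9.53, 9.60 and 10.24 with shERK5-5, and 10.93, 10.90 and 11.44 with shNSC in CHLA-90. For SK-N-BE(2) the signals were 9.50, 9.0 and 9.13 with shERK5-4, 9.54, 9.27 and 9.40 with shERK5-5, and 9.30, 8.70 and 9.04 with shNSC. The CHLA-90 groups did not overlap, with shERK5-5 lowest, while the SK-N-BE(2) groups did. SLC2A1 fell to 40.6% of shNSC with shERK5-5 in CHLA-90 (log2 difference -1.30 ± 0.21, limma adjusted p = 0.000184), and the call held under every alternative run.

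SLC2A3, the high-affinity transporter of neurons, responded in SK-N-BE(2). The signals in SK-N-BE(2) were 11.14, 9.88 and 10.68 with shERK5-4, 8.27, 8.23 and 8.35 with shERK5-5, and 8.80, 8.64 and 8.75 with shNSC, so that shERK5-4 lay above both other groups. It rose 3.57-fold with shERK5-4 there (log2 difference 1.84 ± 0.22, limma adjusted p = 1.23e-06). In CHLA-90 it measured 3.95, 4.16 and 4.16 with shERK5-4, 4.30, 4.21 and 4.15 with shERK5-5, and 4.45, 3.99 and 4.49 with shNSC, with differences of -0.22 ± 0.22 and -0.09 ± 0.22 that did not pass (limma adjusted p = 0.593 and 0.851). These signals lie near the 25th percentile of the probe means, 3.93, and no detection calls were used, so a change of a gene close to background could be missed there.

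GPI rose in 3 of the 4 comparisons. Its enzyme converts glucose 6-phosphate to fructose 6-phosphate. Its log2 signals in CHLA-90 were 13.47, 13.63 and 13.86 with shERK5-4, 11.96, 12.79 and 13.23 with shERK5-5, and 11.86, 11.74 and 12.17 with shNSC. In SK-N-BE(2) they were 11.74, 11.71 and 12.30 with shERK5-4, 12.29, 12.03 and 12.61 with shERK5-5, and 10.66, 10.61 and 10.76 with shNSC. All 6 silenced arrays of SK-N-BE(2) and all 3 shERK5-4 arrays of CHLA-90 lay above shNSC, and 1 shERK5-5 array of CHLA-90 overlapped it. GPI rose 3.32-fold with shERK5-4 in CHLA-90, and 2.36-fold with shERK5-4 and 3.1-fold with shERK5-5 in SK-N-BE(2) (log2 differences 1.73 ± 0.25, 1.24 ± 0.25 and 1.63 ± 0.25, limma adjusted p = 1.86e-05, 0.000533 and 5.58e-05), and these calls held under every alternative run. With shERK5-5 in CHLA-90 the difference was 0.74 ± 0.25 (limma adjusted p = 0.053). There it passed at 1.09 without shERK5-5 replicate 1, the lowest array (adjusted p = 0.00256), and with the replicate block (adjusted p = 0.015), and it was 0.45 without shERK5-5 replicate 3 (adjusted p = 0.246). Without shERK5-5 replicate 1 GPI was the listed gene that passed alike with both hairpins in CHLA-90, and EGLN1 did not pass with shERK5-5 (adjusted p = 0.101). GPI and VEGFA were the listed genes that passed with 1 sign with both hairpins in SK-N-BE(2), where 5.21% of all probes did, and the 2 comparisons share their shNSC arrays. The hairpins opposed each other for 0 listed genes there and for 1.94% of all probes.

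The other genes of upper glycolysis passed with at most 1 hairpin in each line, and HK1 passed in neither line. HK2, the inducible hexokinase, measured 7.03, 7.40 and 7.58 with shERK5-4, 8.69, 8.25 and 8.55 with shERK5-5, and 8.11, 7.97 and 7.99 with shNSC in SK-N-BE(2). In CHLA-90 all 9 arrays lay between 5.66 and 5.92. In SK-N-BE(2) the 3 groups did not overlap, with shERK5-4 lowest. HK2 fell by 0.69 ± 0.17 with shERK5-4 there (limma adjusted p = 0.00305), and with shERK5-5 the difference was 0.47 ± 0.17 (limma adjusted p = 0.0645).

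Of the 3 phosphofructokinase genes, PFKL (liver type) measured 9.15, 9.20 and 9.83 with shERK5-4, 8.53, 7.63 and 8.78 with shERK5-5, and 8.37, 8.24 and 8.92 with shNSC in CHLA-90, with shERK5-4 above both other groups. SK-N-BE(2) arrays gave 8.10, 7.73 and 7.91 with shERK5-4, 7.81, 7.82 and 7.66 with shERK5-5, and 6.98, 7.53 and 7.19 with shNSC, with shNSC lowest. PFKL rose by 0.88 ± 0.25 with shERK5-4 in CHLA-90 (limma adjusted p = 0.0164; 0.0658 to 0.117 without shNSC replicate 1 or 2 or shERK5-4 replicate 3), and the differences in SK-N-BE(2) were 0.68 ± 0.25 and 0.53 ± 0.25 (limma adjusted p = 0.0559 and 0.218). PFKM (muscle type) rose by 0.57 ± 0.19 with shERK5-4 in SK-N-BE(2) (limma adjusted p = 0.0304; 0.108 to 0.121 without shNSC replicate 2 or 3 or shERK5-4 replicate 1).

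PFKP (platelet type) measured 13.61, 13.91 and 13.66 with shERK5-4, 12.89, 12.77 and 12.80 with shERK5-5, and 13.65, 13.50 and 13.53 with shNSC in CHLA-90. For SK-N-BE(2) the signals were 13.50, 13.16 and 13.75 with shERK5-4, 14.15, 14.09 and 14.27 with shERK5-5, and 14.02, 13.93 and 14.09 with shNSC. The lowest arrays were those of shERK5-5 in CHLA-90 and those of shERK5-4 in SK-N-BE(2). PFKP fell by 0.74 ± 0.16 with shERK5-5 in CHLA-90 (limma adjusted p = 0.00337) and by 0.54 ± 0.16 with shERK5-4 in SK-N-BE(2) (limma adjusted p = 0.0151; 0.0579 to 0.0944 without shNSC replicate 3 or shERK5-4 replicate 2). PFKFB3, which makes the activator of phosphofructokinase, rose by 0.60 ± 0.18 with shERK5-4 in CHLA-90 (limma adjusted p = 0.023), by 0.37 without shNSC replicate 2 (adjusted p = 0.19), and the call was also lost without shERK5-4 replicate 2 or 3 (lowest adjusted p 0.08).

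In lower glycolysis, 3 calls were made among 9 genes, 2 of them for ENO1. In CHLA-90 22.2% passed with shERK5-4 and 0% with shERK5-5, and in SK-N-BE(2) 11.1% and 0%, where 18.3%, 12.7%, 23.9% and 12.8% of all probes passed. ENO1 encodes the ubiquitous enolase, which makes phosphoenolpyruvate. Log2 signals in CHLA-90 were 15.80, 15.86 and 15.87 with shERK5-4, 16.13, 16.12 and 16.30 with shERK5-5, and 16.49, 16.57 and 16.47 with shNSC. The signals in SK-N-BE(2) were 15.42, 14.90 and 15.30 with shERK5-4, 16.72, 16.61 and 16.75 with shERK5-5, and 16.51, 16.75 and 16.64 with shNSC. The shERK5-4 arrays were the lowest of each line without overlap. ENO1 fell to 63.0% of shNSC in CHLA-90 and to 37.2% in SK-N-BE(2) with shERK5-4 (log2 differences -0.67 ± 0.15 and -1.43 ± 0.15, limma adjusted p = 0.00336 and 2.77e-07), and both calls held under every alternative run. ENO1 was thus, with HIF1A, EGLN3 and GPI, 1 of the 4 listed genes that passed with shERK5-4 alike in both lines, where 10.4% of all probes did.

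TPI1, the triose phosphate isomerase gene, measured 14.46, 14.44 and 14.50 with shERK5-4, 13.45, 13.13 and 13.67 with shERK5-5, and 13.90, 13.66 and 14.10 with shNSC in CHLA-90. In SK-N-BE(2) it measured 13.31, 13.09 and 13.85 with shERK5-4, 13.67, 13.69 and 13.90 with shERK5-5, and 13.65, 13.60 and 13.82 with shNSC. The shERK5-4 arrays were the highest of CHLA-90, and the SK-N-BE(2) groups overlapped. TPI1 rose by 0.58 ± 0.19 with shERK5-4 in CHLA-90 (limma adjusted p = 0.0364; 0.0822 to 0.168 without any 1 of the 3 shERK5-4 arrays or shNSC replicate 1 or 2, and 0.056 with each array centred on its median). The aldolase genes ALDOA and ALDOC, GAPDH, PGK1, PGAM1, the neuronal enolase gene ENO2 and the pyruvate kinase gene PKM did not pass. For ALDOC all 4 differences were negative, at -0.51 and -0.50 in CHLA-90 and -0.60 and -0.71 in SK-N-BE(2), shERK5-4 first (limma adjusted p = 0.0503 to 0.182). Several of these genes have processed pseudogenes (GAPDH, LDHA, TPI1, ENO1, PGAM1), and how the array separates their transcripts is not given in the sources used here.

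At the fate of pyruvate, LDHA makes lactate from it. LDHA measured 15.37, 15.38 and 15.37 with shERK5-4, 15.21, 15.63 and 15.41 with shERK5-5, and 15.05, 15.01 and 15.34 with shNSC in CHLA-90. SK-N-BE(2) arrays gave 9.66, 8.14 and 9.42 with shERK5-4, 10.29, 10.44 and 10.85 with shERK5-5, and 9.34, 9.65 and 9.91 with shNSC. In SK-N-BE(2) the shERK5-5 arrays lay above all others, and in CHLA-90 the shERK5-4 arrays lay just above shNSC. LDHA rose 1.86-fold with shERK5-5 in SK-N-BE(2) (log2 difference 0.89 ± 0.27, limma adjusted p = 0.0306), which no longer passed on leaving out shNSC replicate 1 or 2 or shERK5-5 replicate 2 or 3 (adjusted p = 0.0618 to 0.158). LDHB, the isoform that favours the return of lactate to pyruvate, gave differences of -0.17 and -0.22 in CHLA-90 and -0.12 and 0.07 in SK-N-BE(2), shERK5-4 first, none of which passed.

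PDK1, the kinase that switches off pyruvate dehydrogenase, measured 8.14, 8.12 and 8.09 with shERK5-4, 9.37, 9.26 and 9.56 with shERK5-5, and 9.42, 9.37 and 9.38 with shNSC in SK-N-BE(2). In CHLA-90 it measured 7.58, 7.70 and 8.06 with shERK5-4, 7.03, 6.48 and 7.56 with shERK5-5, and 7.13, 7.49 and 7.22 with shNSC. The SK-N-BE(2) shERK5-4 arrays were the lowest of their line, whereas those of CHLA-90 were above all shNSC arrays of theirs. PDK1 fell to 41.4% of shNSC with shERK5-4 in SK-N-BE(2) (log2 difference -1.27 ± 0.21, limma adjusted p = 5.79e-05), and the difference in CHLA-90 was 0.50 ± 0.21 (limma adjusted p = 0.106).

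The hairpins were then set against each other, since both target the same gene. MAPK7 differed between shERK5-4 and shERK5-5 by -0.08 ± 0.20 in CHLA-90 and -0.06 ± 0.20 in SK-N-BE(2) (limma adjusted p = 0.8 and 0.897). Among the listed genes, 20 of 37 differed between the hairpins in CHLA-90, 14 higher and 6 lower with shERK5-4, where 27.2% of all probes differed. The limits of such shares given above apply here too. In SK-N-BE(2) 17 of 37 differed, 4 higher and 13 lower, where 24.5% of all probes differed. HIF1A, EGLN3 and ADM were lower and ARNT and BNIP3L higher with shERK5-4 in both lines, 5 genes in all, where 11.7% of all probes differed alike in both lines. HIF1A did so by -0.67 ± 0.16 in CHLA-90 and -0.47 ± 0.16 in SK-N-BE(2), the SK-N-BE(2) value being -0.30 after quantile normalization (adjusted p = 0.25) and failing in the fit to that line alone (adjusted p = 0.069). It also failed (adjusted p up to 0.208) without shERK5-4 replicate 1 or 3, any 1 of its shERK5-5 arrays, CHLA-90 shNSC replicate 1 or CHLA-90 shERK5-4 replicate 2. The ADM call in SK-N-BE(2) was lost without shERK5-5 replicate 2 (adjusted p = 0.0765), and the BNIP3L call in CHLA-90 without shERK5-4 replicate 3 (adjusted p = 0.0565). P4HA1, PFKP and PDK1 differed in opposite directions in the lines, higher with shERK5-4 in CHLA-90 and lower in SK-N-BE(2), where 0.974% of all probes did so in either arrangement.

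The 21 measured genes of glucose uptake, glycolysis and pyruvate fate split by line in this comparison. In CHLA-90 10 of them were higher with shERK5-4 than with shERK5-5 and 0 lower, with a median log2 difference of 0.29, where 14.8% of all probes were higher and 12.4% lower and the median over all probes was -0.05. In SK-N-BE(2) 2 were higher and 7 lower, with a median of -0.28, where 11.8% of all probes were higher and 12.6% lower and the median over all probes was 0.03. The 10 genes of CHLA-90 were SLC2A1 (0.87), HK1 (0.82), GPI (0.99), PFKL (1.08), PFKP (0.91), TPI1 (1.05), GAPDH (0.39), PGAM1 (0.64), ENO2 (0.88) and PDK1 (0.76). The 7 lower genes of SK-N-BE(2) were HK2 (-1.16), PFKP (-0.70), PGK1 (-0.55), ENO1 (-1.49), PKM (-0.73), LDHA (-1.45) and PDK1 (-1.28), and the 2 higher ones were SLC2A3 (2.28) and PFKM (0.60). Without CHLA-90 shERK5-5 replicate 1, the array least like its group, the CHLA-90 differences were 0.36 for HK1, 0.42 for ENO2 and 0.64 for GPI, of which only GPI passed (adjusted p = 0.304, 0.168 and 0.0386). Without that array 6 of the 10 genes passed, and without CHLA-90 shERK5-4 replicate 3 it was 5. The GAPDH difference was 0.17 after quantile normalization (adjusted p = 0.437), and its call was also lost with arrays centred on their medians (adjusted p = 0.0605) and without any 1 of 13 arrays. After quantile normalization HK1 (adjusted p = 0.0571), PGK1 (adjusted p = 0.109) and PKM (adjusted p = 0.0553) did not pass either, while ENO1 was lower in CHLA-90, as it was with trend and robust estimation. PFKM was lost without SK-N-BE(2) shERK5-4 replicate 1 or shERK5-5 replicate 1 or 3 (adjusted p = 0.0623 to 0.0873). Single arrays also decided PGK1, lost without any 1 of 14 arrays (adjusted p up to 0.149), PGAM1, lost without CHLA-90 shERK5-4 replicate 1 or 3 or shERK5-5 replicate 1 (adjusted p = 0.0554 to 0.142), and PDK1 in CHLA-90, at 0.49 without shERK5-5 replicate 2 (adjusted p = 0.0727).

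**Figure D3:**
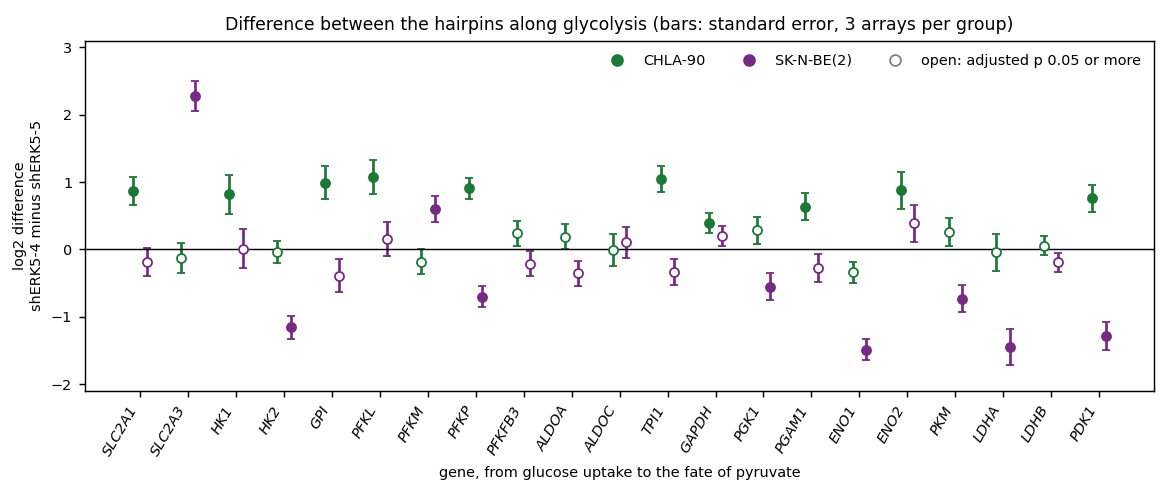
Log2 difference of shERK5-4 from shERK5-5 (points) with its standard error (bars) for the 21 measured genes from glucose uptake to pyruvate fate, CHLA-90 left of SK-N-BE(2) for each gene, 3 arrays per group. Filled points passed a limma adjusted p of 0.05: 10 in CHLA-90, all above 0, and 9 in SK-N-BE(2), of which 7 lie below 0.

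Whether the lines differed in this was tested directly, by a comparison added after the values had been seen. The difference between the hairpins differed between the lines for 15 of 37 listed genes, 12 with a higher value in CHLA-90 and 3 with a lower one, where 13.5% of all probes differed, 8.05% higher and 5.45% lower. Of the 21 glycolysis genes, 10 were higher and 1 lower, with a median of 0.91, where the median over all probes was -0.06. The sizes reached 2.04 ± 0.29 for PDK1, 1.61 ± 0.23 for PFKP, 1.41 ± 0.38 for LDHA and 1.39 ± 0.27 for TPI1 (limma adjusted p = 6.64e-05, 5.52e-05, 0.0166 and 0.00137), and SLC2A3 went the other way at -2.41 ± 0.31 (limma adjusted p = 2.15e-05). In CHLA-90 the SLC2A3 signals lie near background, where a change could be missed. Without the 2 arrays least like their groups, CHLA-90 shERK5-5 replicate 1 and SK-N-BE(2) shERK5-4 replicate 2, 10 of 37 listed genes passed. LDHA was then at 0.84 (adjusted p = 0.0576), GPI at 0.93 (adjusted p = 0.0529), PGAM1 at 0.46 (adjusted p = 0.212) and PKM at 0.62 (adjusted p = 0.0779), none of which passed. SLC2A1 at 0.83 (adjusted p = 0.0996), NDRG1 at 0.84 (adjusted p = 0.0692) and ADM at -0.80 (adjusted p = 0.129) did not pass either. The 10 thus include genes that were not among the 15. After quantile normalization 15 genes passed, 10 higher and 5 lower, but not PGAM1 (adjusted p = 0.0677) or PKM (adjusted p = 0.0921).

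Against shNSC, the effect of shERK5-4 differed between the lines for 9 of 37 genes, 5 higher in CHLA-90 and 4 lower, where 7.23% of all probes differed, 3.89% higher and 3.33% lower. The effect of shERK5-5 differed for 2 genes, both lower in CHLA-90, where 5.39% of all probes differed, 2.4% higher and 2.99% lower. With shERK5-4 the gap between the effects in CHLA-90 and in SK-N-BE(2) was 1.77 ± 0.29 for PDK1, -2.06 ± 0.31 for SLC2A3, -1.66 ± 0.27 for VEGFA and -1.24 ± 0.32 for EPAS1 (limma adjusted p = 0.000462, 0.000197, 0.000329 and 0.0188). Those of EGLN1, BNIP3L, P4HA1, PFKFB3 and ENO1 lay between -0.97 and 0.94, and each was lost without any 1 of 3 to 14 single arrays (adjusted p up to 0.142). After quantile normalization 5 genes passed, 1 higher and 4 lower, and with arrays centred on their medians 7, 3 higher and 4 lower. The EPAS1 gap was lost without SK-N-BE(2) shNSC replicate 2 or CHLA-90 shERK5-4 replicate 3 (adjusted p = 0.0556 to 0.0671). The SLC2A3 gap includes CHLA-90 signals of 3.95 to 4.49, near background, where a change could be missed. With shERK5-5 the gap was -1.69 ± 0.30 for SLC2A1 (limma adjusted p = 0.00171) and -0.90 ± 0.23 for PFKP (limma adjusted p = 0.0235; 0.0597 to 0.0637 without CHLA-90 shNSC replicate 1, SK-N-BE(2) shNSC replicate 2 or shERK5-5 replicate 3).

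The lines also gave different signals for some of the listed genes under shNSC. LDHA lay at 15.13 in CHLA-90 against 9.63 in SK-N-BE(2), VEGFA at 13.60 against 10.55 and ENO2 at 8.45 against 5.50. SLC2A3 lay the other way at 4.31 against 8.73, PFKFB3 at 5.74 against 8.33, HK2 at 5.75 against 8.02 and PDK1 at 7.28 against 9.39. HIF1A was close in both, at 15.67 and 15.53. These levels were not tested, because array medians were 6.35 to 6.43 in CHLA-90 and 5.63 to 5.69 in SK-N-BE(2) and the arrays of the lines may have been normalized apart. Over all probes the median gap under shNSC was 0.45.

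Genes that act around the listed ones were taken from 5 further lists, 98 of whose 108 genes were measured. In the order shERK5-4 and shERK5-5 in CHLA-90, then the same in SK-N-BE(2), 18.3%, 12.7%, 23.9% and 12.8% of all probes passed, and the shares of each list follow in that order. Among 13 other genes of the HIF pathway, the counts higher and lower were 1 and 1 with shERK5-4 and 2 and 1 with shERK5-5 in CHLA-90, and 4 and 1 with shERK5-4 and 1 and 0 with shERK5-5 in SK-N-BE(2), or 15.4%, 23.1%, 38.5% and 7.69%. SIAH2, a ubiquitin ligase that destroys EGLN3 protein, measured 8.72 to 9.10 with shERK5-4, 10.55 to 10.83 with shERK5-5 and 9.97 to 10.15 with shNSC in CHLA-90, and 8.01 to 8.64, 11.07 to 11.59 and 10.37 to 10.95 in SK-N-BE(2) in the same order. The 3 groups did not overlap in either line. SIAH2 fell by 1.21 ± 0.20 and by 2.28 ± 0.20 with shERK5-4 in CHLA-90 and SK-N-BE(2) (limma adjusted p = 9.23e-05 and 8.34e-09). With shERK5-5 it rose by 0.66 ± 0.20 and 0.67 ± 0.20 (limma adjusted p = 0.0291 and 0.0244), calls lost without any 1 of CHLA-90 shNSC replicates 1 to 3 and shERK5-5 replicates 2 and 3 (adjusted p up to 0.0942), and without any 1 of SK-N-BE(2) shNSC replicates 1 and 2 and shERK5-5 replicates 2 and 3 (adjusted p up to 0.153). CREBBP, a coactivator of HIF, rose in CHLA-90 by 1.11 ± 0.17 with shERK5-4 and by 0.99 ± 0.17 with shERK5-5, and by 0.96 ± 0.17 with shERK5-4 in SK-N-BE(2) (limma adjusted p = 5.58e-05, 0.0004 and 0.00017). CITED2, which competes with HIF for that coactivator, rose by 1.17 ± 0.31 with shERK5-4 in SK-N-BE(2) (limma adjusted p = 0.00683), and ELOB, a partner of VHL, fell by 1.53 ± 0.32 with shERK5-5 in CHLA-90 (limma adjusted p = 0.00225).

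Of 35 other hypoxia-inducible genes, 8 rose and 4 fell with shERK5-4 and 4 rose and 3 fell with shERK5-5 in CHLA-90. In SK-N-BE(2) 5 rose and 8 fell with shERK5-4, and 5 rose and 4 fell with shERK5-5. The shares were 34.3%, 20%, 37.1% and 25.7%. The chemokine receptor gene CXCR4 measured 5.32 to 5.77 with shERK5-4, 8.05 to 8.44 with shERK5-5 and 8.21 to 8.28 with shNSC in CHLA-90, and 5.18 to 5.71, 6.80 to 7.18 and 7.18 to 7.64 in SK-N-BE(2) in the same order. The shERK5-4 arrays stood far below the rest of both lines. CXCR4 fell by 2.65 ± 0.19 and by 1.92 ± 0.19 with shERK5-4 (limma adjusted p = 6.64e-10 and 4.82e-08). The creatine transporter gene SLC6A8 fell with shERK5-5, by 1.83 ± 0.22 in CHLA-90 and 1.68 ± 0.22 in SK-N-BE(2) (limma adjusted p = 6.07e-06 and 1e-05). With shERK5-4 it fell by 0.74 ± 0.22 in CHLA-90 (limma adjusted p = 0.0208), a call lost without any 1 of the 3 shERK5-4 arrays or shNSC replicate 3 (adjusted p up to 0.119). RORA, an orphan nuclear receptor gene, rose in CHLA-90 by 0.96 ± 0.17 with shERK5-4 and by 1.29 ± 0.17 with shERK5-5 (limma adjusted p = 0.000269 and 2.11e-05) and by 0.48 ± 0.17 with shERK5-4 in SK-N-BE(2) (limma adjusted p = 0.0451; up to 0.141 without any 1 of 12 arrays). The mitochondrial adenylate kinase gene AK4 fell with both hairpins in SK-N-BE(2), by 1.29 ± 0.18 and by 0.84 ± 0.18 (limma adjusted p = 1.08e-05 and 0.00262).

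Among 23 other glycolytic isoenzymes and transporters, the counts higher and lower were 1 and 3 with shERK5-4 and 1 and 1 with shERK5-5 in CHLA-90, and 3 and 3 with shERK5-4 and 1 and 0 with shERK5-5 in SK-N-BE(2), or 17.4%, 8.7%, 26.1% and 4.35%. BSG encodes basigin, the chaperone that brings the monocarboxylate transporters for lactate to the cell surface. Its log2 signals were 11.18 to 11.39 with shERK5-4, 13.67 to 14.25 with shERK5-5 and 14.21 to 14.53 with shNSC in CHLA-90, and 11.57 to 12.12, 14.78 to 14.97 and 14.70 to 15.07 in SK-N-BE(2) in the same order. The shERK5-4 arrays of both lines stood apart from all others. BSG fell by 3.04 ± 0.18 in CHLA-90 and by 3.05 ± 0.18 in SK-N-BE(2) with shERK5-4 (limma adjusted p = 5.12e-11 and 3.04e-11), and with shERK5-5 the differences were -0.35 ± 0.18 and 0.03 ± 0.18 (limma adjusted p = 0.239 and 0.966). GPD2, the mitochondrial glycerol phosphate dehydrogenase gene, fell by 1.34 ± 0.21 and by 2.61 ± 0.21 with shERK5-4 (limma adjusted p = 6.25e-05 and 3.39e-09), and the transporter gene SLC2A6 by 1.17 ± 0.23 and by 0.96 ± 0.23 (limma adjusted p = 0.000629 and 0.00284). SLC16A7, a monocarboxylate transporter gene, rose by 1.76 ± 0.22 with shERK5-4 in CHLA-90 (limma adjusted p = 2.85e-06) and by 0.73 ± 0.22 in SK-N-BE(2) (limma adjusted p = 0.0159), the second value being 0.41 without shERK5-4 replicate 1 (adjusted p = 0.143) and lost also without shNSC replicate 2 (adjusted p = 0.0836).

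**Figure D4:**
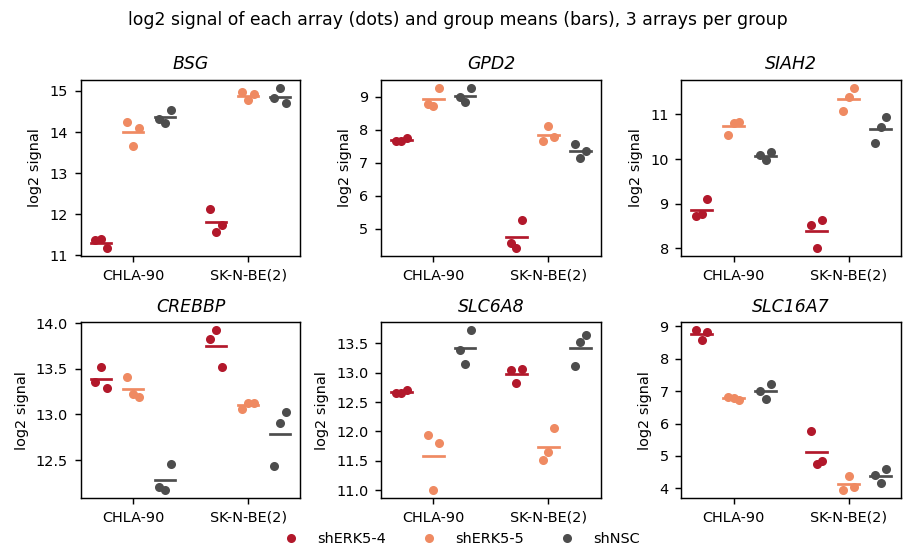
Log2 signal of every array (dots) and group means (bars) for 6 genes that act around the listed ones, with shERK5-4, shERK5-5 and shNSC from left to right in each line. BSG, GPD2 and SIAH2 are lowest with shERK5-4 in both lines, and SLC6A8 is lowest with shERK5-5 in both lines.

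Of 19 genes of pyruvate oxidation and gluconeogenesis, 4 rose and 3 fell with shERK5-4 and 1 rose with shERK5-5 in CHLA-90, and 2 rose and 2 fell with shERK5-4 and 1 rose with shERK5-5 in SK-N-BE(2), or 36.8%, 5.26%, 21.1% and 5.26%. MPC2, a subunit gene of the mitochondrial pyruvate carrier, rose by 1.16 ± 0.15 in CHLA-90 and 0.59 ± 0.15 in SK-N-BE(2) with shERK5-4 (limma adjusted p = 7.43e-06 and 0.00622). PDHX, a structural subunit of pyruvate dehydrogenase, rose by 1.05 ± 0.17 and 0.58 ± 0.17 (limma adjusted p = 8.6e-05 and 0.0148; the second 0.0557 to 0.0805 without shNSC replicate 3 or shERK5-4 replicate 1). PDK3, a kinase gene of the same family as PDK1, fell by 1.05 ± 0.19 and by 0.76 ± 0.19 with shERK5-4 (limma adjusted p = 0.000257 and 0.00373). The malic enzyme gene ME2 rose by 0.68 ± 0.15 with shERK5-5 in CHLA-90 (limma adjusted p = 0.00457) and by 0.45 ± 0.15 with shERK5-4 there (limma adjusted p = 0.0429; up to 0.122 without any 1 of 9 arrays).

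In the pentose phosphate pathway, which branches off before GPI, 2 of 8 genes rose with shERK5-4 and 2 fell with shERK5-5 in CHLA-90, and 3 rose and 1 fell with shERK5-5 in SK-N-BE(2), where 0 passed with shERK5-4. The shares were 25%, 25%, 0% and 50%. TKT, the transketolase gene, rose by 1.10 ± 0.16 with shERK5-5 in SK-N-BE(2) (limma adjusted p = 4.91e-05). RPIA, the ribose phosphate isomerase gene, rose by 1.22 ± 0.21 with shERK5-4 in CHLA-90 (limma adjusted p = 0.000184) and fell by 1.28 ± 0.21 with shERK5-5 in SK-N-BE(2) (limma adjusted p = 0.00014). PGLS passed with shERK5-4 in CHLA-90 and with shERK5-5 in SK-N-BE(2) at 0.57 each (limma adjusted p = 0.0343 and 0.0463), with adjusted p-values up to 0.128 and 0.28 without single arrays, and PGD did not pass (limma adjusted p = 0.121 to 0.607).

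Markers of the labelled cell type and of fibroblasts moved with shERK5-4 as well. The fibroblast sum also lay above shNSC with shERK5-5 in both lines. Of 9 measured neuroblastoma markers, 7 fell with shERK5-4 in CHLA-90 and 5 in SK-N-BE(2), where 8.25% and 11.7% of all probes were lower. Their summed signal on the log2 scale was 15.45 to 15.78 with shERK5-4, 16.39 to 16.72 with shERK5-5 and 16.41 to 16.81 with shNSC in CHLA-90, and 13.66 to 14.07, 14.87 to 15.19 and 14.89 to 15.15 in SK-N-BE(2) in the same order. The sum of 5 fibroblast markers was 11.36 to 11.49, 12.70 to 12.93 and 12.50 to 12.59 in CHLA-90, and 12.44 to 12.69, 16.08 to 16.10 and 14.61 to 14.92 in SK-N-BE(2). The sum of 5 blood markers was 6.52 to 6.85, 7.03 to 7.33 and 6.71 to 7.04 in CHLA-90, and 6.90 to 7.07, 8.44 to 8.77 and 8.19 to 8.49 in SK-N-BE(2), where PTPRC fell by 1.95 ± 0.17 with shERK5-4 (limma adjusted p = 1.19e-08). The sum of 5 endothelial markers lay between 6.06 and 7.40 in all groups. The part of these shifts in the changes of the hypoxia and glycolysis genes was not tested, and in bulk RNA fewer cells of a kind and less RNA per cell cannot be told apart.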

How the data were processed

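The authors deposited log2 signals for each probe on each array, already summarised and normalized. Their range gave the base. Software, normalization method and build: not given in the sources used here. Per the labels' protocols, RNA was isolated with a miRNeasy kit and labelled with a GeneChip whole-transcript kit. The listed genes and the other lists were chosen with earlier results of these data known.

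One limma model (version 3.58.1, R 4.3.3; lmFit, eBayes) with 6 group means was fitted to all 21448 probes and 18 arrays, with 12 residual and 9.588 prior degrees of freedom. The Benjamini-Hochberg adjustment ran across the whole array in each comparison, and the threshold was 0.05. Errors of differences are standard errors. Array values are given for genes that passed alike with both hairpins of a line, for genes with a line or hairpin difference past the threshold of at least 1 on the log2 scale, and for HIF1A, EPAS1, VEGFA, CA9 (not measured), SLC2A1, LDHA and PDK1. Of each other list, up to 4 genes with the smallest p for the mean of the hairpins in either line are named. Alternatives were median centring, quantile normalization, dropping dim probes (mean under the 25th percentile), a replicate block, a fit to 1 line, trend and robust estimation, averaged probes, and leaving out each array. The test for line differences between the hairpins, and leaving out 2 arrays together, were chosen after seeing the data. The fit was tested on simulated data. Arrays have no read depth, and their number limits the precision. P-values set each difference against the spread between biological replicates, pooled over the 6 groups, so arrays outside a comparison also affect them.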

Additional observations from a re-analysis of the deposited data

Results flagged for a closer look

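These genes were singled out because the effect of silencing differed between the lines by a test of the difference itself (limma, adjusted p below 0.05); each value is CHLA-90 minus SK-N-BE(2) on the log2 scale, and no explanation was tested. The effect of shERK5-4 differed for SLC2A3 (-2.06), VEGFA (-1.66), EPAS1 (-1.24), BNIP3L (-0.97), ENO1 (0.76), PFKFB3 (0.85), P4HA1 (0.86), EGLN1 (0.94) and PDK1 (1.77). The effect of shERK5-5 differed for SLC2A1 (-1.69) and PFKP (-0.90). Of these, PFKFB3 was lost without any 1 of 14 arrays, EGLN1 of 13, ENO1 and P4HA1 of 9, BNIP3L and PFKP of 3, and EPAS1 of 2. PFKFB3, EGLN1, ENO1 and P4HA1 were also lost after quantile normalization. Those of SLC2A3, VEGFA, PDK1 and SLC2A1 held under every alternative run.

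The difference of shERK5-4 from shERK5-5, compared between the lines after the values had been seen, was lower in CHLA-90 for SLC2A3 (-2.41), VEGFA (-1.06) and ADM (-0.95). It was higher in CHLA-90 for NDRG1 (0.87), PGAM1 (0.91), PKM (0.99), SLC2A1 (1.06), HK2 (1.12), ENO1 (1.15), GPI (1.39), TPI1 (1.39), LDHA (1.41), P4HA1 (1.59), PFKP (1.61) and PDK1 (2.04). Of these, ADM was lost without any 1 of 12 arrays, PGAM1 of 7, NDRG1 of 6, PKM of 4, and LDHA and SLC2A1 of 1 (SK-N-BE(2) shERK5-5 replicate 3, adjusted p = 0.0534, and CHLA-90 shERK5-5 replicate 1, adjusted p = 0.0503). ADM, NDRG1, SLC2A1, GPI, PGAM1, PKM and LDHA were also lost without the 2 arrays least like their groups. Signals of SLC2A3 in CHLA-90 and of NDRG1 in SK-N-BE(2) lie near the 25th percentile of the probe means, 3.93.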

How the results depend on the processing

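Of 99 calls of listed genes over the 9 comparisons, 56 held under every alternative run, 43 were lost under at least 1, 41 of them without a single array, and 0 changed sign. The count of genes passing alike with both hairpins in CHLA-90, 1 in the fit reported, was 2 after quantile normalization, without dim probes, with trend and robust estimation and with the replicate block, GPI being added. The line difference in the shERK5-4 effect, 9 genes, was 5 after quantile normalization. With shERK5-5 in SK-N-BE(2), 5 genes became 10 without the 2 arrays least like their groups. Median centring moved no count by over 1.5 times, and averaging probes changed none, since each gene has 1. Leaving out 1 array at a time gave 6 to 12 genes for shERK5-4 and 4 to 8 for shERK5-5 in CHLA-90, and 11 to 16 and 3 to 9 in SK-N-BE(2). The same gave 0 to 2 genes for both hairpins in CHLA-90, 2 to 3 for both in SK-N-BE(2), 14 to 21 and 12 to 18 between hairpins in CHLA-90 and SK-N-BE(2), 3 to 10 and 1 to 4 for the line difference with shERK5-4 and shERK5-5, and 10 to 18 for that between the hairpins. Single arrays moved some counts by over 1.5 times: shERK5-4 in CHLA-90 gave 7 without shNSC replicate 1 or shERK5-4 replicate 2 and 6 without shNSC replicate 2 or shERK5-4 replicate 3, and shERK5-5 in SK-N-BE(2) gave 3 without its shERK5-5 replicate 1 or shNSC replicate 1 or 2, 8 without SK-N-BE(2) shERK5-4 replicate 1 or 2 or CHLA-90 shERK5-5 replicate 2, and 9 without CHLA-90 shERK5-5 replicate 1. For both hairpins in CHLA-90 it was 0 without shNSC replicate 3 and 2 without SK-N-BE(2) shERK5-4 replicate 3. The line difference with shERK5-4 was 3 without SK-N-BE(2) shNSC replicate 2, 4 without CHLA-90 shNSC replicate 2 or shERK5-4 replicate 3, and 5 without CHLA-90 shERK5-4 replicate 2 or SK-N-BE(2) shNSC replicate 3; with shERK5-5 it was 4 without CHLA-90 shERK5-5 replicate 3 and 1 without SK-N-BE(2) shERK5-5 replicate 3, SK-N-BE(2) shNSC replicate 2 or CHLA-90 shNSC replicate 1. Replicate numbers are shared between groups, and the deviations of 18 same-numbered pairs from their group means correlated at -0.126 to 0.204, with 7 over 0.1. The fit reported did not take the numbers as pairs, and the replicate block was run as an alternative. All 6 pairs of replicate 3 were among the 7, and 10 of 18 arrays correlated best with their own number. These values do not settle whether the numbers mark pairs. The replicate block moved no other count by over 1.5 times. With a lone signal per probe and no detection calls, changes near background cannot be judged.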
